A study of Mus musculus with 7 samples.

Results

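H3K27me3, a repressive histone mark, was compared with H3K4me3, a mark common at promoters, in mouse spermatocytes at postnatal day 17 (P17). Members were all 26387 peaks in the P17 H3K27me3 list and all 51603 peaks in the P17 H3K4me3 list, 77990 of the 137861 peaks in the 5 lists of the series that were used here. The series title concerns repression of soma-specific genes by Polycomb repressive complex 2 (PRC2), and this comparison asks where its product lay relative to H3K4me3. All samples came from wild-type (WT) mice of the CD1 strain, as spermatocytes separated from digested testes on a Percoll gradient. Each P17 list was made from 2 pooled replicates per the labels, so a group is 1 list and there is no spread between replicates. The P12 lists (postnatal day 12) of both marks and the P17 list of EED, a PRC2 subunit, each came from 1 replicate and are used for comparison. The peaks carry no expression values, so the purity of the spermatocytes could not be checked against marker genes.

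PRC2 places H3K27me3 on nucleosomes, and its EED subunit binds that mark, through which the mark can spread from a starting site to neighbouring nucleosomes. H3K4me3 is placed by the COMPASS family of methyltransferases at promoters, mostly those rich in CpG. No gene annotation was used here, so which of the H3K4me3 peaks lie at promoters is not known. In stem cells and germ cells, promoters of developmental regulators often carry both marks, a state called bivalent. An overlap of peaks from a population does not separate cells that carry both marks from a mixture of cells that carry either one.

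For the P17 library titled H3K4me3, the label for the antibody gives H3K27me3 instead, and the title was followed. The P17 H3K4me3 list overlapped 95.7% of P12 H3K4me3 peaks and 66.3% of P12 H3K27me3 peaks, so it lay closer to the mark in its title. It shared 66.0% of the combined base pairs with the P12 H3K4me3 list and 12.3% with the P12 H3K27me3 list. The P17 H3K27me3 list shared 24.2% with the P12 list of its own mark and 23.6% with P12 H3K4me3. It overlapped 95.3% of P12 H3K27me3 peaks but 39.4% of P12 H3K4me3 peaks.

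H3K4me3 lay on most H3K27me3 domains at P17, whereas most H3K4me3 peaks lay outside H3K27me3. Of 26387 H3K27me3 peaks, called domains below, 16636 overlapped an H3K4me3 peak by at least 1 bp, which is 63.0% (Wilson 95% interval 62.5% to 63.6%). Of 51603 H3K4me3 peaks, 18237 overlapped H3K27me3, which is 35.3% (34.9% to 35.8%). That left 9751 domains with H3K27me3 alone and 33366 peaks with H3K4me3 alone. These intervals cover counting error only and treat called peaks as independent. When each peak of a pair had to cover 50% of the other, the H3K4me3 share was 22.0% and the H3K27me3 share 43.0%.

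In base pairs, 36.7 Mb lay under both marks. This was 42.5% of the 86.4 Mb under H3K27me3 and 34.5% of the 106 Mb under H3K4me3. Few peaks sat near the limit of 1 bp. Among the domains, 37 had 1 to 100 bp under H3K4me3, and 42 without overlap had an H3K4me3 peak within 100 bp. Among H3K4me3 peaks, 67 had 1 to 100 bp under H3K27me3 and 74 lay outside but within 100 bp of a domain.

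Overlapping peaks were mostly nested, with H3K4me3 inside H3K27me3. Of the 18384 overlapping pairs, the H3K4me3 peak lay wholly inside the domain in 12835 (69.8%, Wilson 95% interval 69.1% to 70.5%). It crossed 1 edge of the domain in 4534 (24.7%) and spanned the whole domain in 1015 (5.52%). Crossings divided almost evenly between the ends, with 2184 at the lower coordinate and 2350 at the higher. The median shared H3K4me3 peak was therefore covered to 100% by H3K27me3, with a first quartile of 96.4%. Seen from the other mark, the median shared domain had 65.9% of its length under H3K4me3 (quartiles 49.9% and 82.1%), so the typical domain extended past the H3K4me3 peak it held.

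Most shared regions paired 1 domain with 1 H3K4me3 peak. Linking every overlapping peak gave 16489 groups, of which 15116 (91.7%) were such pairs. Another 1228 groups (7.45%) joined 1 domain to several H3K4me3 peaks, 103 joined several domains to 1 H3K4me3 peak, and 42 joined several of each. In the 1 to 1 pairs the domain had a median width of 2845 bp and the H3K4me3 peak 1890 bp, with a median width ratio of 1.45, and the domain was the wider one in 12677 pairs (83.9%). The 2 midpoints lay a median of 232 bp apart (quartiles 100.5 and 480 bp), within 250 bp in 7966 pairs (52.7%) and over 1000 bp apart in 1256 (8.31%).

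H3K27me3 extended past the H3K4me3 peak on both sides in 10274 of the 15116 pairs (68.0%). In those pairs the shorter overhang had a median of 384 bp and the longer one 897 bp. Overhangs at the lower and the higher coordinate had medians of 621 and 600 bp. Across the pairs, widths of the marks had a Spearman correlation of 0.50, given as a description, since both widths come from the same loci.

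The number of H3K4me3 peaks in a domain was 0 for 9751 domains, 1 for 15357, 2 for 1012, 3 to 5 for 251, 6 to 10 for 13 and over 10 for 3. Among domains with any H3K4me3, 92.3% thus held exactly 1 peak, and the 1279 domains with 2 or more made up 4.85% of all domains but 14.0% of the H3K27me3 base pairs. Median width went with the count, from 2041 bp for domains with 0 peaks and 2835 bp for those with 1 to 6399 bp for those with 2 and 16339 bp for those with 3 to 5.

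The 3 domains with over 10 H3K4me3 peaks were also the 3 widest and the 3 with the most base pairs under both marks. In mm9 coordinates, chr15:102738509-102834200 spanned 95692 bp and held 20 H3K4me3 peaks, which covered 39.95% of it. The domain chr11:96129003-96219277 spanned 90275 bp and held 15 peaks, covering 46.9%. The domain chr2:74482891-74555463 spanned 72573 bp and also held 15 peaks, covering 54.4%. EED peaks numbered 29, 47 and 36 in these domains, and P12 H3K27me3 covered 88.7%, 87.1% and 89.3% of them. In each of the 3, therefore, many H3K4me3 peaks lay along 1 unbroken H3K27me3 domain.

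The next domains were less than 50 kb wide and held fewer H3K4me3 peaks. The fourth widest, chr11:96025689-96071294 (45606 bp), held 8 H3K4me3 peaks over 29.5% of its length, and the fifth, chr4:139355374-139400747 (45374 bp), held 5 over 23.0%. The fifth domain by number of peaks, chr1:78182919-78217029 (34111 bp), held 7 over 41.2%. The peak lists pair no gene with a region, and no gene annotation of the mm9 build was used here, so regions are given by position.

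Wider domains were more often shared. Counted over all domains, shared or not, the part under H3K4me3 was nearly the same in all classes above 2 kb. In shared domains alone it fell with width. The share with H3K4me3 was 32.7% for the 104 domains under 1 kb, 44.8% for the 8337 of 1 to 2 kb and 67.3% for the 14312 of 2 to 5 kb. It was 87.5% for the 3044 domains of 5 to 10 kb, 95.1% for the 489 of 10 to 20 kb and 100% for the 101 of 20 kb and over (Wilson 95% lower bound 96.3%). A wide domain has more room for an overlap of 1 bp, so density was also taken. Per 10 kb of domain there were 2.81 H3K4me3 peaks in the class of 1 to 2 kb, 2.27 at 2 to 5 kb, 1.63 at 5 to 10 kb, 1.47 at 10 to 20 kb and 1.64 at 20 kb and over. Density was higher in the narrow classes, where the share was lower. A peak that overlaps a domain in part counts whole, which by geometry raises the density of narrow domains. Density therefore does not remove the effect of width. Base pairs under H3K4me3 made up 26.9% of domains under 1 kb, 36.9% at 1 to 2 kb, and 43.9%, 43.1%, 42.6% and 42.7% in the 4 wider classes. These values include domains without H3K4me3. Among domains with H3K4me3 they were 81.0% under 2 kb and 62.9% at 2 to 5 kb. They were 48.9% at 5 to 10 kb, 44.6% at 10 to 20 kb and 42.7% at 20 kb and over.

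**Figure D1:**
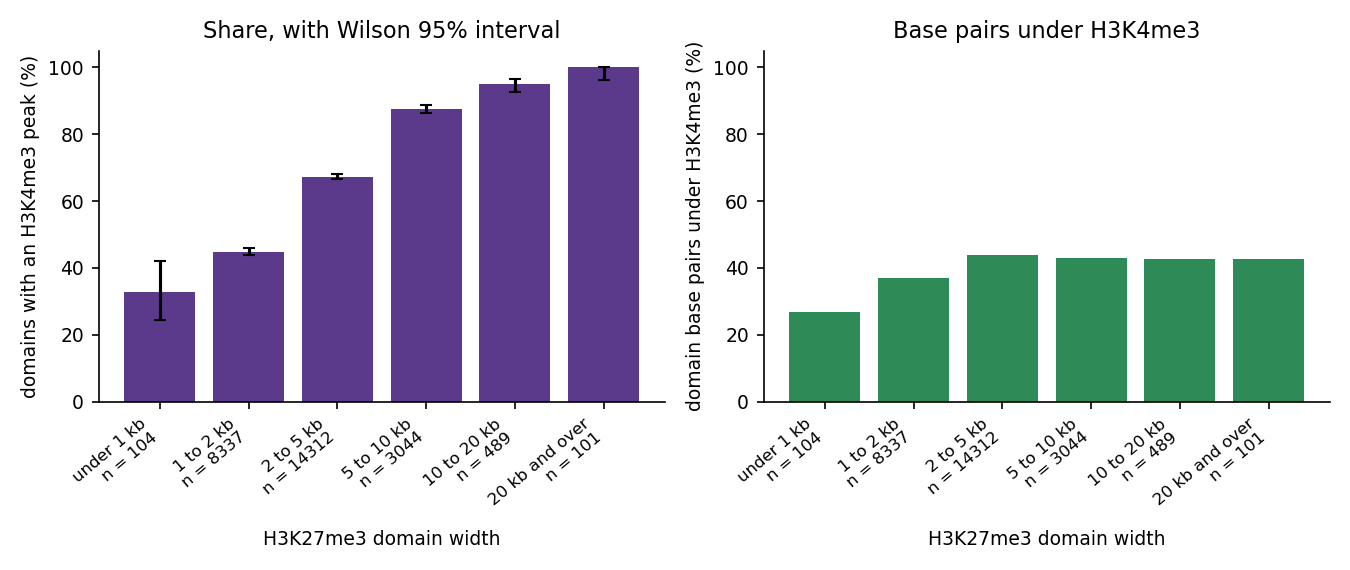
H3K27me3 domains at P17 by width class, with n the number of domains. Left, bars give the percent of domains that overlap an H3K4me3 peak, with Wilson 95% intervals; right, bars give the percent of domain base pairs under H3K4me3. The share climbs from 32.7% to 100%. The base pair percentage counts domains without H3K4me3 too and stays between 42.6% and 43.9% in the 4 classes above 2 kb.

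H3K4me3 coverage was highest at the centre of the domains and lowest at their edges. Each of the 16636 domains with H3K4me3 was divided into 10 bins of equal length, and the percent of base pairs under H3K4me3 was taken per bin, both ends averaged. It was 21.9% in the outermost bins, 44.4% in the next, then 64.7% and 77.2%, and 82.4% in the 2 central bins. Peaks placed evenly, with midpoints free to fall outside the domain, would give the same value in every bin. Peaks with midpoints kept inside a domain cover its centre more than its edges by geometry. How much of the rise this sets was not tested. The outermost bins at the lower and the higher coordinate had 21.2% and 22.6%, so the pattern was alike at both ends. Only 6573 of the 33272 edges of these domains (19.8%) lay under an H3K4me3 peak. In the 1 to 1 pairs, the H3K4me3 midpoint lay in the central 20% of the domain in 8891 pairs (58.8%) and beyond the outer limits of the domain in 437.

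Coverage was lower at the edges than at the centre in every width class. The outermost and the 2 central bins had 51.8% and 95.8% of base pairs under H3K4me3 in domains under 2 kb, and 22.5% and 91.3% at 2 to 5 kb. They had 12.5% and 76.4% at 5 to 10 kb, 15.4% and 55.0% at 10 to 20 kb, and 22.8% and 53.2% at 20 kb and over. Across the inner 6 bins coverage ran from 53.7% to 57.3% at 10 to 20 kb and from 44.8% to 56.9% at 20 kb and over. Leaving out H3K4me3 peaks that cross an edge lowered the outermost bins to 10.2% and left the central ones at 80.9%, and peaks wholly inside a domain favour its centre by geometry.

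**Figure D2:**
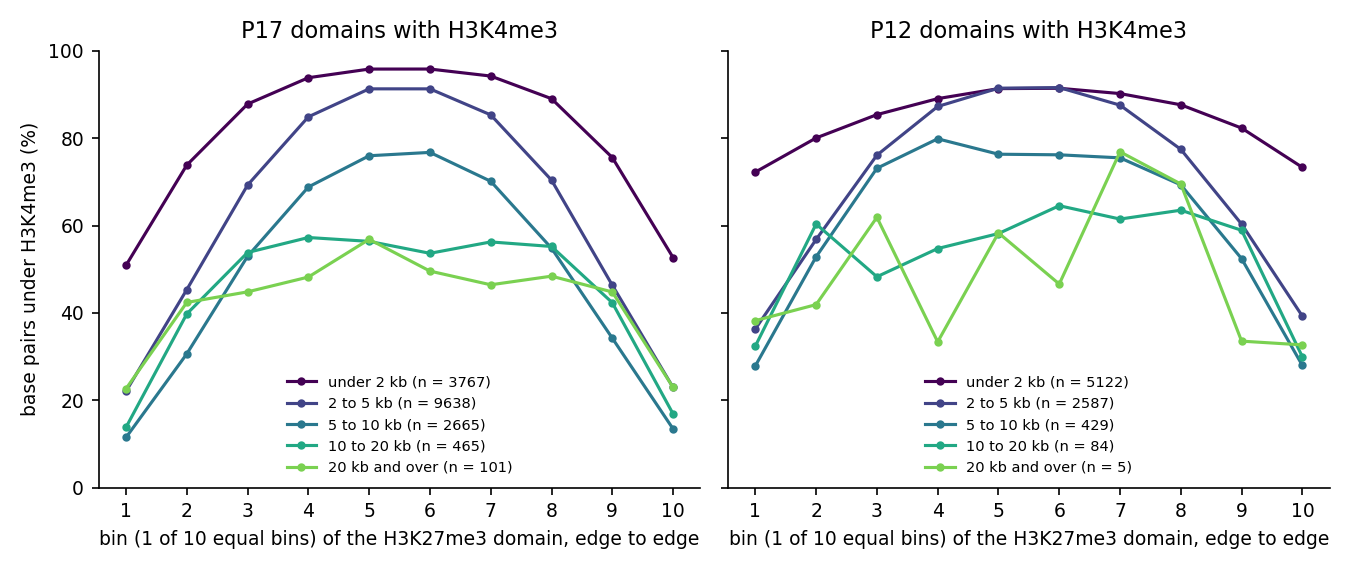
Percent of base pairs under H3K4me3 (vertical axis) in each of 10 equal bins of the H3K27me3 domain from edge to edge (horizontal axis), for domains with H3K4me3, by width class; n is the number of domains. At P17 (left) all 5 curves are lowest in the outermost bins, and those for the 2 widest classes lie between 44.8% and 57.3% in the inner 6 bins; at P12 (right) the class of 20 kb and over holds 5 domains and varies from bin to bin.

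Measured in base pairs from the edge, H3K4me3 was low outside the domains and climbed over the first 2 to 3 kb inside. Windows of 250 bp clear of any other domain had 3.71% of their base pairs under H3K4me3 at 4750 to 5000 bp outside an edge, 4.92% at 500 to 750 bp outside and 9.39% in the last 250 bp before the edge. Inside, the first 250 bp had 17.9%, the stretch from 750 to 1000 bp had 44.8%, and the highest value was 61.2% at 2250 to 2500 bp. Deeper windows come from wider domains only, so the classes were also taken apart. In domains of 10 kb and over the value was 4.02% just outside the edge, 5.39% in the first 250 bp inside, 23.1% from 1000 to 1250 bp and 51.8% from 3000 to 3250 bp.

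**Figure D3:**
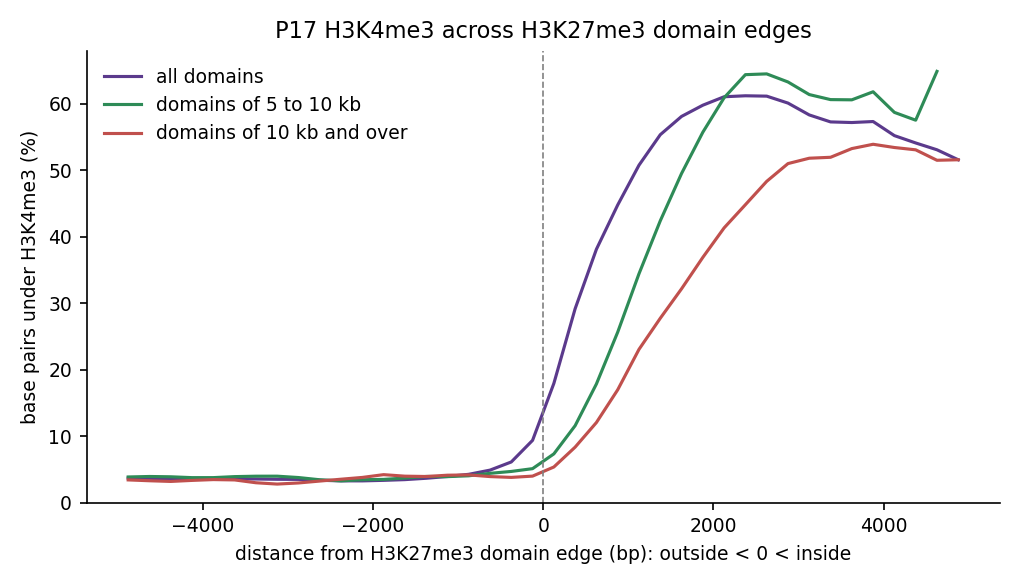
Percent of base pairs under H3K4me3 (vertical axis) by distance from the edge of a P17 H3K27me3 domain in bp (horizontal axis, outside negative, inside positive up to the domain midpoint), in windows of 250 bp; lines stand for all domains, those of 5 to 10 kb and those of 10 kb and over, and points resting on under 100 windows are left out. All 3 lines lie near 4% outside until the last 1000 bp, where the line for all domains climbs to 9.39%, and the line for 10 kb and over climbs latest, reaching 51.8% at 3000 to 3250 bp.

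In the 566 domains of 10 kb and over that held H3K4me3, the distance from a domain edge to the first H3K4me3 base had a median of 2210 bp (quartiles 1092 and 3813 bp), and 51 of 1132 edges lay under an H3K4me3 peak. Such domains held a median of 2 H3K4me3 peaks, and 153 held 1. Their longest stretch without H3K4me3 had a median of 4253 bp and reached 21336 bp in 1 domain. H3K4me3 covered a median of 44.2% of their length (quartiles 32.2% and 55.9%).

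Shared peaks were wider than single-mark peaks in both lists. Domains with H3K4me3 had a median width of 2973 bp (quartiles 2072 and 4456 bp) and domains without it 2041 bp (1591 and 2743 bp). The distributions overlapped widely, but 5% of shared domains were over 8531 bp, against 4694 bp among the others. With 50% of the domain required under H3K4me3, the difference in medians was 87 bp instead of 932 bp. Among H3K4me3 peaks the shared ones had a median of 1894 bp (1474 and 2572 bp) and those with H3K4me3 alone 1606 bp (1250 and 2350 bp). The share of H3K4me3 peaks with H3K27me3 was 13.5% under 1 kb, 32.9% at 1 to 2 kb, 42.1% at 2 to 5 kb, 41.2% at 5 to 10 kb and 44.7% for the 38 peaks of 10 kb and over (Wilson 95% interval 30.1% to 60.3%). Breadth of H3K4me3 above 2 kb thus did not separate peaks with H3K27me3 from peaks without it.

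**Figure D4:**
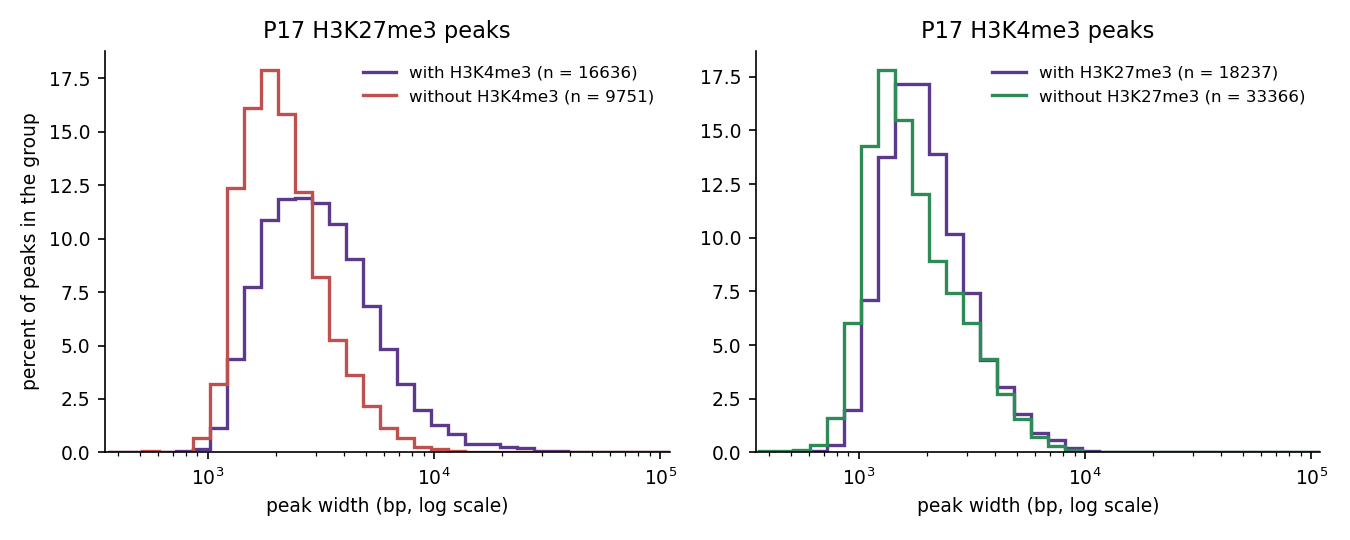
Widths of P17 peaks in bp (horizontal axis, log scale) as percent of the peaks in each group (vertical axis), for H3K27me3 domains (left) and H3K4me3 peaks (right), each divided by overlap with the other mark. Shared H3K27me3 domains are shifted to larger widths (median 2973 against 2041 bp), and the shift is smaller for H3K4me3 peaks (1894 against 1606 bp).

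The widest H3K4me3 peaks were found both inside and outside H3K27me3. The widest of all, chr11:74978140-74994768 (16629 bp), lay under 1 H3K27me3 domain over 60.4% of its length and held 0 EED peaks. The next 2 shared ones, chr2:104962512-104975381 (12870 bp) and chr4:109646512-109658602 (12091 bp), lay wholly inside a domain and held 8 and 15 EED peaks. The widest without H3K27me3 were chr7:31371350-31386490 (15141 bp), chr2:112095839-112109551 (13713 bp) and chr11:69802670-69815764 (13095 bp). Their nearest domains lay 30465, 253802 and 19787 bp away, and none of the 3 held an EED peak or P12 H3K27me3.

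Few wide domains had H3K27me3 alone, and a wide domain meets an overlap of 1 bp more easily. Of the 590 domains of 10 kb and over, 24 had no H3K4me3, and every one of the 101 of 20 kb and over had some. The 3 widest without H3K4me3 were chr5:114072162-114086540 (14379 bp), chr8:123770260-123784347 (14088 bp) and chr11:118548057-118562052 (13996 bp). H3K4me3 was nearest to these at 6379, 11707 and 23102 bp, and 0 EED peaks overlapped them. Over all 9751 domains with H3K27me3 alone, the nearest H3K4me3 peak lay a median of 10.3 kb away (quartiles 3.94 and 23.4 kb), within 1 kb for 579 (5.94%). The 33352 H3K4me3 peaks without H3K27me3 on chromosomes that have any lay farther off, with a median of 41.6 kb (14.0 and 115 kb) to the nearest domain. There are fewer domains to be near (26387) than H3K4me3 peaks (51603), which by itself lengthens that distance.

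Most short gaps between neighbouring H3K27me3 peaks were free of H3K4me3. Whether they differ in this from other sequence beside domains was not tested. Of 2553 gaps of at most 1 kb, an H3K4me3 peak touched 248 (9.71%) and covered 134 (5.25%) whole. Accordingly 145 H3K4me3 peaks touched 2 domains and 1 touched 3. That one, chr8:124064550-124070174 (5625 bp), lay under H3K27me3 over 76.0% of its length and had no P12 H3K27me3. The next in order were chr1:59818908-59822961 (4054 bp) and chr1:74435659-74445500 (9842 bp), with 74.8% and 98.9% under H3K27me3.

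At P17 the X chromosome and chromosomes 3 and 10 stood apart from the rest. On the X, 107 of 117 domains had H3K4me3 (91.5%, Wilson 95% interval 85.0% to 95.3%), against 62.9% of 26270 autosomal domains. Only 116 of 1412 X-linked H3K4me3 peaks had H3K27me3 (8.22%, 6.89% to 9.76%), against 36.1% of 50177 autosomal ones. Within the width class of 1 to 2 kb, 40 of 46 X domains and 44.5% of autosomal ones had H3K4me3, and at 2 to 5 kb 51 of 54 and 67.2%, so the difference was also present at like width. In 1 list per mark, fewer cells with a mark and less signal per cell cannot be told apart. The Y chromosome had 14 H3K4me3 peaks and 0 domains.

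Among the 19 autosomes the share of domains with H3K4me3 ran from 55.6% on chromosome 4 to 78.1% on chromosome 3, with 75.9% on chromosome 10 and a median of 62.8%. For chromosomes 3 and 10 the intervals lay above those of every other autosome. Domains with H3K27me3 alone numbered 8.73 and 10.6 per 100 H3K4me3 peaks on these chromosomes, against 29.6 on chromosome 4 and 0.708 on the X. At P12, the share was 71.3% on chromosome 3, 75.04% on chromosome 10 and 84.2% on the X, but also 72.2% on chromosome 7 and 70.8% on chromosome 18. Chromosome 10 had the highest autosomal share there, but its interval (71.4% to 78.4%) overlapped that of chromosome 7 (69.0% to 75.1%). The interval of chromosome 3 overlapped others as well. The P12 intervals of chromosomes 3 and 10 rest on 492 and 581 peaks, against 1100 and 1350 at P17, and are wider. Their overlap at P12 therefore does not show a difference between the stages. The share of H3K4me3 peaks with H3K27me3 ranged less, from 30.6% on chromosome 16 to 39.7% on chromosome 4.

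**Figure D5:**
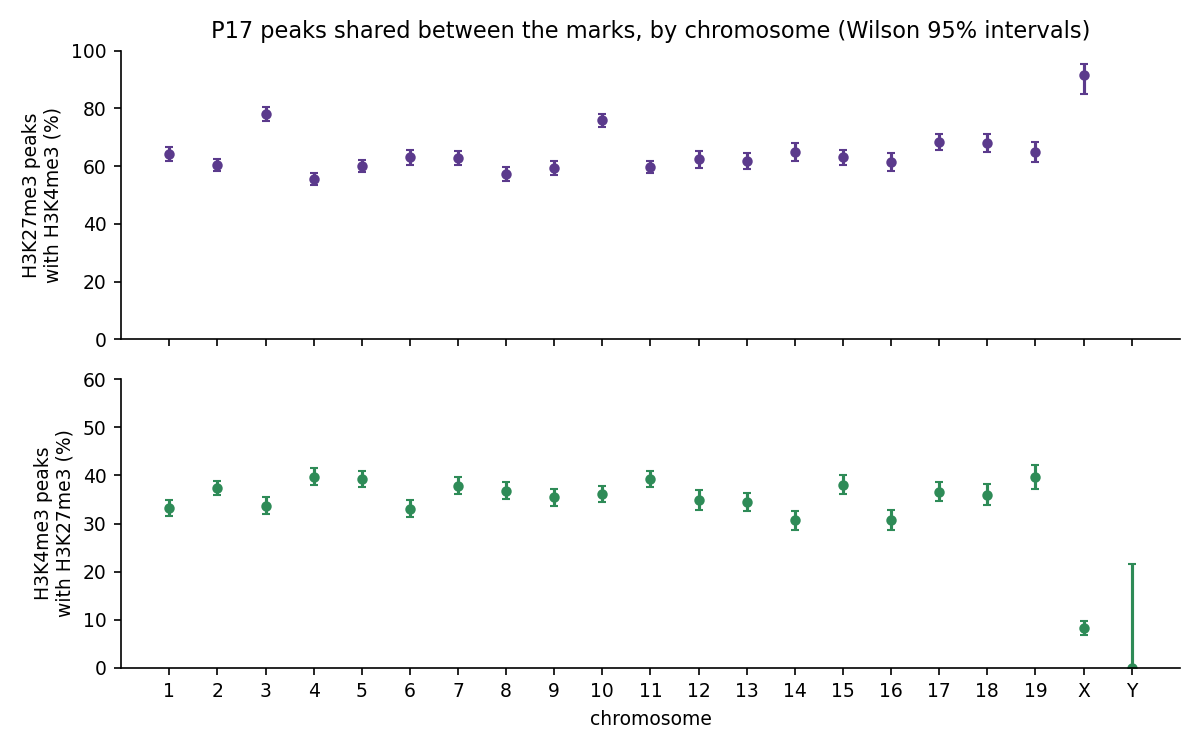
Percent of P17 H3K27me3 peaks with H3K4me3 (top) and of H3K4me3 peaks with H3K27me3 (bottom) on each chromosome (horizontal axis), with Wilson 95% intervals as error bars; the Y has no H3K27me3 peak. The X lies at 91.5% in the top panel and at 8.22% in the bottom one, and chromosomes 3 and 10 lie at 78.1% and 75.9% in the top panel.

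Shared and single-mark domains differed in their P12 state. The split used P17 H3K4me3, which overlapped 95.7% of P12 H3K4me3 peaks, so the P12 H3K4me3 values here largely restate the split. P12 H3K4me3 lay on 93.5% of the domains with H3K4me3 and on 1.72% (168 of 9751) of those without. Within width classes the values were 87.0% against 1.54% at 1 to 2 kb and 98.1% against 1.58% at 5 to 10 kb. P12 H3K27me3 lay on 40.1% of shared domains (Wilson 95% interval 39.3% to 40.8%) and 18.4% of single-mark ones (17.6% to 19.2%). Its difference depended on width. At 1 to 2 kb the order turned, with 4.31% of shared (3.71% to 5.01%) and 7.86% of single-mark domains (7.12% to 8.68%). At 2 to 5 kb the values were 36.4% and 24.6%, and at 5 to 10 kb 91.0% and 64.9%. Narrow shared domains at P17 thus mostly lay where P12 had H3K4me3 and no H3K27me3 peak.

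H3K4me3 peaks with H3K27me3 at P17 had a P12 H3K4me3 counterpart in 92.7% of cases, those without in 73.9%. The difference was present at 1 to 2 kb (89.7% against 68.3%) and at 2 to 5 kb (98.4% against 91.8%). P12 H3K27me3 lay on 41.6% of the shared H3K4me3 peaks and on 68 of the 33366 others. The P17 H3K27me3 list behind this split overlapped 95.3% of P12 H3K27me3 peaks, so few were left for the others.

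EED peaks, which mark PRC2 itself, lay mostly where both histone marks were called. They had a median width of 303 bp, and 51.0% of gaps between neighbouring EED peaks were at most 1 kb. Regions with many EED peaks thus weigh more in the share that follows, whose interval treats peaks as independent. Each EED peak was counted by what it overlapped itself. One in a shared domain but off its H3K4me3 peak thus counts as H3K27me3 alone here. Of 2701 EED peaks, 1970 (72.9%, Wilson 95% interval 71.2% to 74.6%) overlapped both, 253 H3K27me3 alone, 74 H3K4me3 alone and 404 neither. The last 2 counts include 47 EED peaks in a stretch of chromosome 6 (chr6:52097777-52230508) where the P17 H3K27me3 list used here has no peak and the P12 list has 26. Whether the P17 list is complete in that stretch is not known, which also bears on 22 H3K4me3 peaks counted as H3K4me3 alone and on the order of the widest domains. Few domains had one: 589 of 16636 shared domains (3.54%) and 11 of 9751 single-mark domains (0.113%). Among domains of 10 to 20 kb the counts were 170 of 465 shared (36.6%, 32.3% to 41.0%) and 0 of 24 single-mark, whose interval reaches 13.8%. At 5 to 10 kb they were 223 of 2665 (8.37%) and 1 of 379 (0.264%), and at 1 to 2 kb 3 of 3733 (0.0804%) and 5 of 4604 (0.109%), whose intervals overlap.

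The same comparison at P12 gave nearly the same share but another layout. At P12, 63.1% of 13028 H3K27me3 peaks overlapped H3K4me3, against 63.0% at P17, while 17.0% of 44142 H3K4me3 peaks overlapped H3K27me3, against 35.3%. The H3K27me3 list was larger at P17, with 26387 peaks over 86.4 Mb against 21.6 Mb at P12. How much of the rise its size sets was not tested. P12 peaks were narrower (median 1090 against 2529 bp), and at equal width the shares differed. At 1 to 2 kb, 72.5% of P12 and 44.8% of P17 H3K27me3 peaks had H3K4me3, and at 2 to 5 kb 95.5% and 67.3%. In 1 to 1 pairs at P12 the H3K27me3 peak was the wider one in 44.4% of 5606 pairs (median ratio 0.918), against 83.9% at P17, and extended past H3K4me3 on both sides in 29.6%. The H3K4me3 peak lay inside the H3K27me3 peak in 26.4% of P12 pairs and spanned it in 30.3%. Groups of several H3K27me3 peaks under 1 H3K4me3 peak made up 14.4% of P12 groups and 0.625% of P17 groups. Midpoints of 1 to 1 pairs lay 246 bp apart at P12 and 232 bp at P17. Base pairs under both marks made up 58.3% of P12 H3K27me3 and 42.5% at P17. The P12 lists came from 1 replicate and the P17 lists from 2, so stage and pooling cannot be told apart.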

How the data were processed

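Wild-type CD1 mouse spermatocytes were profiled by chromatin immunoprecipitation and sequencing, and groups were taken from sample titles. The deposited peak lists hold start and end positions on mm9 and no score, height or p-value; the authors' peak caller was MACS, going by how peaks are named in the files themselves, and the file names give the level 5 for a false discovery rate. Bowtie, SAMtools and HTSeq are named without roles in the submitters' processing notes. The caller's version and settings, read depth and any use of input: not given in the sources used here. Depth behind a peak is therefore unknown. Called widths and numbers move with depth and pooling. Input libraries, gene-body counts and sequences were not analysed here.

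Overlaps, distances and coverage were computed with Python 3.11.15, pandas 2.3.3, NumPy 2.4.6 and SciPy 1.17.1, with coordinates printed counted from 1. A shared peak overlaps the other mark by at least 1 bp. Shares have Wilson 95% intervals and their differences Newcombe intervals, for counting error only. No test was run, since each mark is 1 list. The code was tested on 3000 simulated domains and recovered 12 of 12 known values. Named regions are the 5 widest domains, the 5 with most H3K4me3 peaks, the 3 with most base pairs under both marks, the 3 widest without H3K4me3, the 3 widest H3K4me3 peaks with and without H3K27me3, and the 3 H3K4me3 peaks touching most domains. Members, classes and alternatives (other overlap rules, merged peaks, peaks of at least 1000 bp, autosomes) were chosen with earlier results of these data known. The lists have no scores for a stricter threshold, and the minimum width stood in for it.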

Additional observations from a re-analysis of the deposited data

How the results depend on the processing

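Each choice was changed alone, except that the windows at edge and midpoint were used only in domains of at least 5 kb. Of the values recomputed, 21 moved by less than their counting interval, or by less than 5% where no such interval exists. The other values follow; where the rule itself does not set the shift, the cause was not tested. The share of H3K27me3 domains with H3K4me3 (63.0%) was 62.4% with 500 bp shared, 47.2% with 50% of the domain covered and 43.0% with 50% of both peaks. It was 67.0% and 73.3% with peaks merged within 1 and 5 kb and 62.2% with peaks of at least 1000 bp. The share of H3K4me3 peaks with H3K27me3 (35.3%) was 34.8%, 33.9% and 22.0% under the 3 overlap rules, 36.5% with peaks of at least 1000 bp and 36.1% on autosomes. Domains with 2 or more H3K4me3 peaks (4.85%) made up 4.16% by midpoints inside, 3.45% by whole peaks inside and 4.26% after merging within 1 kb.

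Coverage of the outermost bins (21.9%) was 10.2% without peaks crossing an edge, 14.3% in domains of at least 5 kb and 17.7% at 10 kb. In the central bins (82.4%) it was 69.0% and 54.5% in those domains, 88.1% in domains with 1 peak and 76.1% after merging within 1 kb. Within 500 bp of an edge and 250 bp of the midpoint, in domains of at least 5 kb, it was 10.2% and 74.3%. The gap in median width of 932 bp was 87 bp under the 50% rule and 998 bp after merging, and that of H3K4me3 peaks (288 bp) was 266 and 337 bp. Domains of 10 kb and over exceeded those under 2 kb by 51.3 points in share. The difference was -1.29 in H3K4me3 peaks per 10 kb, a measure that by geometry is raised in narrow domains.

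Differences between shared and single-mark domains, in percentage points, depended on width. For P12 H3K27me3 (21.7) the difference was 13.5 under the 50% rule, and -3.87, -3.55, 11.9, 26.1 and 3.74 from under 1 kb to 10 to 20 kb. For P12 H3K4me3 (91.7) it was 57.4 under that rule and 88.2, 85.4, 92.4, 96.5 and 94.97 in the same classes. For EED (3.43) it was 0.146 under that rule and -0.0282, 1.003, 8.10 and 36.6 from 1 to 2 kb upward; no domain under 1 kb had EED. The P17 share of domains with H3K4me3 minus that at P12 (-0.102) was -8.31 under the 50% rule and -6.27, -27.7, -28.2, -12.2 and -4.91 in the 5 classes. For H3K4me3 peaks the stage difference (18.3) was 19.9 under that rule. The X exceeded autosomes by 28.5 points in domains with H3K4me3, and by 37.6 under that rule.

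No paired analysis was possible because the replicates were pooled into 1 list per mark and no test was run; for the same reason no replicate was left out. Read depth and peak scores are unknown, so a stricter calling threshold was not tried, and the minimum width of 1000 bp took its place.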

Other observations

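A stretch of chromosome 6, chr6:52097777-52230508 in mm9 (132732 bp), carried H3K4me3 at P17 without any P17 H3K27me3 peak. It held 22 P17 H3K4me3 peaks over 61229 bp, the widest of 4904 bp, together with 47 EED peaks, 26 P12 H3K27me3 peaks and 25 P12 H3K4me3 peaks. All 22 count as H3K4me3 alone above, and they make up 22 of the 68 such peaks that had P12 H3K27me3. The region was chosen after its values were seen, as the surroundings of the widest P12 H3K27me3 peak, and whether the P17 H3K27me3 list used here is complete in it is not known.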
